A study of Mus musculus with 2 samples.

Results

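Among the cells of the murine preputial gland (PG), one population carried the keratins of the basal layer together with an intermediate level of *Dbi*, the transcript of the acyl-CoA binding protein, and transcripts of *Cck*, *Pparg* or *Plin2*. These cells, labelled early keratin-positive sebocytes (SEB), were 379 of the 4699 PG cells within the quality limits, or 8.07% (95% Clopper-Pearson interval 7.30% to 8.88%), and of 13598 such cells in the whole series. A cell was kept with at least 500 genes, at least 1000 unique molecular identifiers (UMIs, each standing for 1 captured mRNA molecule) and at most 10% of its UMIs from mitochondrial genes. The members were chosen by their measured values. *Krt5* and *Krt14* together had to reach 20 per 10000 UMIs of the cell, *Dbi* had to lie from 50 to below 200 per 10000, *Cck*, *Pparg* and *Plin2* had to sum to at least 2 UMIs, and fewer than 3 of 8 proliferation genes (*Mki67*, *Top2a*, *Aurkb*, *Plk1*, *Ccnb2*, *Cenpa*, *Rrm2*, *Pclaf*) could be detected. What these genes show in the members is therefore a description of the choice.

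The study compared single cells of PG with those of back skin from 3 male wild type C57BL/6 mice aged 52 weeks. Tissue of the 3 mice was pooled, so that each tissue is 1 library and no value below has a replicate. No treatment or transgene was used, and pooled animals cannot be told apart. Comparisons are made between cells of the same library or set side by side between the 2 libraries. All intervals cover counting error alone, and no test between conditions is possible.

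SEB are the lipid-filled cells of sebaceous glands. They arise from a basal layer that divides and carries *Krt5* and *Krt14*, move inward while they accumulate lipid droplets, and finally burst and release their content. The PG is a specialized sebaceous gland of rodents whose secretion drains through a duct lined by stratified keratinocytes.

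On the mm10 assembly (GENCODE M21 annotation) the genes of the rule are protein-coding loci. *Krt5* lies on the minus strand at chr15:101707070-101712898 and *Krt14* on the minus strand at chr11:100203162-100207548. *Dbi* lies at chr1:120113280-120121078 and *Cck*, encoding the peptide cholecystokinin, at chr9:121489824-121495694, both on the minus strand. *Pparg*, encoding the nuclear receptor that drives lipid cell differentiation, lies on the plus strand at chr6:115360951-115490399. *Plin2*, encoding a coat protein of lipid droplets, lies on the minus strand at chr4:86648386-86670060.

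The members held 1419487 UMIs in all, with a median of 3315 UMIs and 1340 genes per cell and 3.10% mitochondrial UMIs. Their *Krt5* and *Krt14* sum ran from 20 to 119 per 10000 with a median of 32.3, and their *Dbi* from 50 to 192 per 10000 with a median of 79.7. Most of the keratin was *Krt14*, which had UMIs in all 379 cells, against 285 cells for *Krt5*. The requirement for *Cck*, *Pparg* and *Plin2* was met mainly by *Cck*, detected in 364 members, followed by *Plin2* in 256 and *Pparg* in 40. In 115 members (30.3%) *Cck* alone met it, and 68 members passed with exactly 2 UMIs. The members were compared with 2 neighbouring groups of the same library. Dbi-low keratin-positive cells (1430 cells, median 2581 UMIs) met the same keratin and proliferation limits with *Dbi* below 50 per 10000. Dbi-high cells (367 cells, median 6154 UMIs) had *Dbi* of at least 200 per 10000 at any keratin level, and only 49 of them reached the keratin limit. *Cck* was also detected in 68.4% of the Dbi-low cells and in 55.3% of the deeper Dbi-high cells, so it was not particular to the members.

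**Figure D1:**
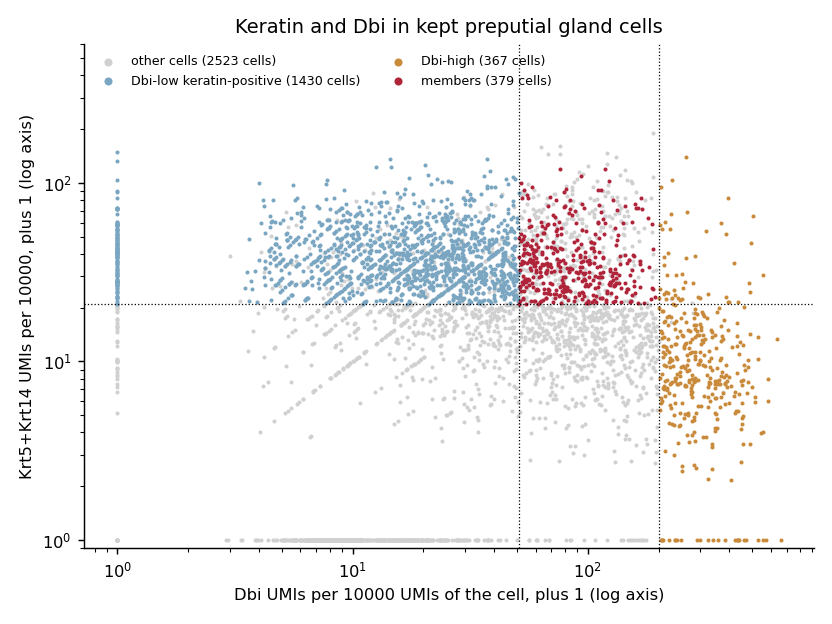
*Dbi* (x axis) and *Krt5* plus *Krt14* (y axis) in each of the 4699 kept PG cells, as UMIs per 10000 UMIs of the cell plus 1 on log axes; dotted lines mark the limits. The 379 members fill the keratin-positive window between the 1430 Dbi-low cells and the 367 Dbi-high cells without a gap at either limit.

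The limits left no gap in the values they used, but other genes differed across them. Cells set on either side of a limit met the other limits of the rule, including that on *Cck*, *Pparg* and *Plin2*. Cells just above the lower *Dbi* limit (50 to 55 per 10000, 44 cells) had *Scd1* at 148 CPM (counts per 1000000 UMIs of the group). Such cells just below it (45 to 50 per 10000, 43 cells) had 356 CPM. *Cst6* was at 7023 CPM inside and 484 CPM outside the lower *Dbi* limit, with at least 3 duct markers in 15.9% and 2.33% of these cells. This contrast depends on the limit on *Cck*, *Pparg* and *Plin2*. Keratin-positive, non-proliferating cells taken without it had 3 duct markers or more in 28.0% from 35 to 50 per 10000 and in 34.7% from 50 to 75. At the upper limit 8 cells inside had *Scd1* at 2044 CPM and 9 cells outside at 3577 CPM, and the duct-marker share was 50% inside and 11.1% outside. Taken without the limit on *Cck*, *Pparg* and *Plin2*, the share was 60.4% from 150 to 200 per 10000 and 36.7% from 200 upward. At the keratin limit *Scd1* was at 931 CPM in the 44 cells just inside and at 932 CPM in the 52 cells just outside. The limit on *Cck*, *Pparg* and *Plin2* separated 68 cells with 2 UMIs from 99 cells with 1 UMI. In those groups *Cst6*, encoding the secreted protease inhibitor cystatin E/M, stood at 35005 and 55798 CPM, above its level at the other limits. At the proliferation limit *Krt5* was at 864 CPM in 12 cells with 2 genes detected and at 1022 CPM in 22 cells with 3.

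The label was checked against markers. At least 1 of 5 basal keratinocyte markers (*Krt15*, *Col17a1*, *Itga6*, *Itgb4*, *Trp63*) was detected in 347 members (91.6%, interval 88.3% to 94.2%). *Krt15* had a UMI in 63.6% of members and *Trp63* in 59.4%. In cells with at least 3 fibroblast markers (fibroblast-marker cells), which were less deep, the shares were 8.03% and 6.90%. In Dbi-low cells they were 72.5% and 53.7%, so these 2 genes do not set the members apart from Dbi-low cells. At least 1 of 9 sebocyte markers outside the rule (*Scd1*, *Mgst1*, *Cidea*, *Awat2*, *Soat1*, *Far2*, *Elovl3*, *Mc5r*, *Fabp4*) was detected in 370 members, and at least 3 of them in 89. The first count rests on *Mgst1*, which had a UMI in 364 members but also in 454 of 710 fibroblast-marker cells (63.9%) and in 77.3% of Dbi-low cells, and does not set the members apart. The counts of cells by basal or sebocyte markers were not made in the other groups and describe the members alone. The label did not hold evenly, because 90 members (23.7%, interval 19.6% to 28.4%) carried at least 3 of 7 markers of suprabasal or duct keratinocytes (*Krt1*, *Krt10*, *Krt79*, *Krt17*, *Krt6a*, *Sbsn*, *Krtdap*). The number of these markers per cell had 2 peaks. It was 0 in 112 members, 1 in 131, 2 in 46, 3 in 17, 4 in 27, 5 in 39 and 6 in 7. Thus 63 members stood next to the limit of 3, and the division is a range and not a cell type. The 90 cells were deeper than the other 289 members (median 4730 against 2987 UMIs), and 60 members still reached 3 markers when each cell was thinned to 1000 UMIs.

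In the members with at least 3 duct markers, *Cst6* stood at 45732 CPM, against 391 CPM in the other members. The median over cells was 206 per 10000 UMIs in the former and 0 in the latter, of which 106 had any *Cst6* UMI. *Defb6*, a beta-defensin, was at 5695 against 274 CPM. *Krt17*, a keratin of ducts and one of the 7 markers that chose these cells, was at 6076 against 109 CPM through that choice. Of 9 sebocyte identity genes counted, 4 were at least 2-fold lower and 2 at least 2-fold higher in the same cells. The list summed to 7811 CPM against 5479 CPM, of which *Fabp5*, a fatty acid binding protein that keratinocytes also carry, gave 5524 and 402 CPM. *Pparg* was at 2.0 CPM, from 1 UMI in 498882, against 46.7 CPM in the other 289. *Cck* was at 435 against 1652 CPM, *Plin2* at 224.5 against 632 CPM and *Scd1*, the stearoyl-CoA desaturase, at 196 against 591 CPM. *Psph*, encoding phosphoserine phosphatase of serine synthesis, was at 363 against 1322 CPM. *Dbi* was at 10445 and 8792 CPM, within the window that the rule set for all members. *Cck*, *Plin2* and *Pparg* are also genes of the rule. Their limit is in UMIs, which the deeper cells with at least 3 duct markers (median 4730 against 2987 UMIs) can meet at a lower CPM.

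Of 5204 genes counted outside the rule and the 7 markers, 468 (8.99%) were at least 2-fold higher and 740 (14.2%) at least 2-fold lower in the members with at least 3 duct markers than in the other members. These shares describe groups split by expression of the same cells and carry no test. Of 10 secreted and antimicrobial genes counted, 8 were higher. They included *Slpi* (1652 against 40.2 CPM) and *Wfdc18* (868 against 14.1 CPM), both of the whey acidic protein family. Of 16 genes of mitochondrial fatty acid oxidation, 4 were lower and none higher, among them *Eci1* (32.1 against 149 CPM). Of 15 immediate early and heat shock genes, 5 were higher and none lower, with a median log2 ratio of 0.81. Of 13 genes of the mevalonate and sterol pathway, 2 were higher and none lower, and *Idi1*, the isopentenyl diphosphate isomerase, was at 666 against 485 CPM. Over cells the *Idi1* median went the other way, at 0.95 per 10000 UMIs in the members with at least 3 duct markers and 2.34 in the others. The highest cell of the former stood at 166 per 10000, far above their 95th percentile of 10.2. The same markers were present in at least 3 of 7 in 307 of 1430 Dbi-low cells (21.5%) and in 28 of 367 Dbi-high cells (7.63%). Among the 255 keratin-positive cells that lay in the *Dbi* window but had fewer than 2 UMIs of *Cck*, *Pparg* and *Plin2*, 205 carried them (80.4%).

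**Figure D2:**
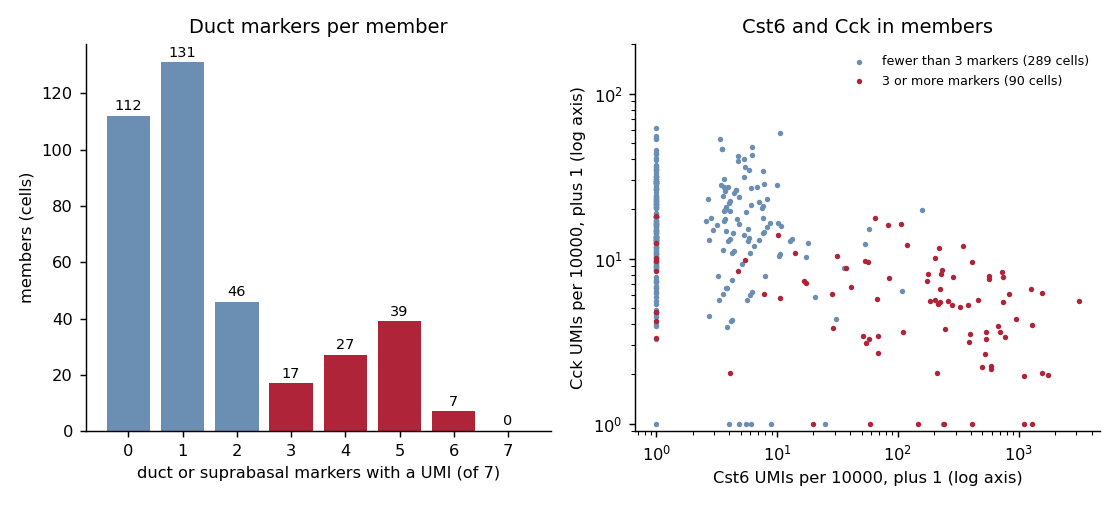
Left, number of members (y axis) by how many of 7 duct or suprabasal markers had a UMI (x axis); right, *Cst6* (x axis) and *Cck* (y axis) in each member, as UMIs per 10000 plus 1 on log axes. The 90 members with at least 3 markers (red) form a second peak at 4 and 5 markers and extend to a *Cst6* level of 3169 per 10000, whereas the other 289 (blue) keep the higher *Cck* levels.

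Background RNA in the droplets was read from barcodes with at most 100 UMIs, which held 2575119 UMIs in PG. *Dbi* was abundant in it, at 9600 CPM, close to the 9373 CPM of the members. Its companions were not in the same ratio. *Idi1* stood at 1.26 times *Dbi* in this free RNA and at 0.0585 times *Dbi* in the members, and *Scd1* at 0.333 and 0.0483 times *Dbi*. Of the 710 cells with at least 3 fibroblast markers, 43 (6.06%) lay in the *Dbi* window of the members, and 66.1% had a *Dbi* UMI at a median depth of 1422 UMIs. Shares of cells with a UMI in those fibroblast-marker cells were 13.7% for *Cck*, 18.7% for *Plin2*, 27.0% for *Scd1* and 27.0% for *Cst6*, against 96.0%, 67.5%, 56.5% and 49.3% of members. At 1000 UMIs per cell the shares in members were 68.1% for *Cck*, 37.5% for *Plin2*, 26.4% for *Scd1* and 35.1% for *Cst6*, and in fibroblast-marker cells 8.03%, 12.1%, 17.9% and 19.4%. *Awat2*, a wax synthase, was found in 4.49% of members and 1.69% of fibroblast-marker cells, too few to read as expression. *Idi1* was found in 52.8% of members and 48.5% of fibroblast-marker cells, and at 1000 UMIs per cell in 25.6% and 36.1%. At equal depth *Idi1* was thus not more frequent in the members than in fibroblast-marker cells, and the part of free RNA was not tested.

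Markers of other cell types were rare in the members. The 8 fibroblast markers summed to 85.2 CPM, with *Dcn* the most abundant, against 237 CPM in Dbi-low cells and 894 CPM in free RNA. The 10 immune markers summed to 119 CPM, led by *Cd74*, with *Cd3e* at 0. The 8 endothelial markers summed to 13.4 CPM, led by *Cldn5*, with *Cdh5*, *Emcn* and *Egfl7* at 0. The 8 contractile markers summed to 51.4 CPM, led by *Acta2*, with *Myh11*, *Cnn1* and *Actg2* at 0, and of 8 melanocyte and Schwann markers 7 were at 0. At least 3 fibroblast markers were carried by 3 members and at least 3 immune markers by 2. Resemblance to simulated doublets had a median score of 0.533 in the members, 0.567 in all kept cells and 0.667 in the members with at least 3 duct markers. Among the latter 8 of 90 were in the top-scored 177 barcodes of the library, and 14 of all members were. Doublets were not removed, and their part in the duct-marker cells was not tested.

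Compared with Dbi-low keratin-positive cells, some genes of lipid synthesis and storage were at least 2-fold higher in the members and a few basal adhesion genes at least 2-fold lower, while most genes counted stayed within 2-fold. Of 5272 genes outside the rule with a mean of at least 20 CPM, 79 (1.5%) were at least 2-fold higher and 90 (1.71%) at least 2-fold lower in the members. These counts depend on the setting. At an equal depth of 1000 UMIs per cell they were 210 and 175, at a keratin limit of 40 per 10000 they were 160 and 180, with 31 of the 79 and 57 of the 90 shared, and against Dbi-low cells with no UMI of *Cck*, *Pparg* or *Plin2* they were 397 and 257. The median log2 ratio over all genes counted was 0.08. The groups were set apart by *Dbi*, whose values of 9373 and 2009 CPM follow from the rule. *Plin2* was at 489 against 190 CPM and *Cck* at 1224 against 881 CPM, also through the rule. *Krt5* was at 854.5 against 1658 CPM and *Krt14* at 3009 against 2327 CPM, so that the keratins, which had the same limit in both groups, differed in opposite directions.

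Among the lipid genes outside the rule, some in each of the next 6 lists passed 2-fold and none was 2-fold lower. All 6 lists summed to more in free RNA than in the members, with 10892 against 6299 CPM for sebocyte identity, 6000 against 2104 CPM for fatty acid synthesis, 2029 against 683 CPM for acyl transfer, 1022 against 719 CPM for lipid droplets, 3441 against 1817 CPM for peroxisomes and 16852 against 1673 CPM for the mevalonate and sterol pathway. In fibroblast-marker cells *Scd1* summed to 489 CPM, *Fads2* to 75.6 CPM, *Mgll* to 258 CPM and *Hmgcs1* to 295 CPM, no lower than in the members. Such sums are not a level of free RNA alone. Of the 710 fibroblast-marker cells, 77 (10.85%) were among the barcodes top-scored for doublets, against 3.69% of the members. Whether fibroblast-marker cells express the 4 genes themselves was not tested. Over cells the *Scd1* median was 0 in fibroblast-marker cells and 2.12 per 10000 UMIs in the members. Members with fewer than 3 duct markers had *Scd1* at 591 CPM, *Fads2* at 86.9 CPM, *Mgll* at 258.5 CPM and *Hmgcs1* at 217 CPM. *Cidea* at 67.4 CPM, *Olah* at 55.4 CPM and *Agps* at 135.5 CPM were lower in fibroblast-marker cells than in the members. The part of free RNA in the ratios was not tested. Of 8 sebocyte identity genes counted, 5 were at least 2-fold higher and none lower. Of 14 genes of fatty acid synthesis counted, 4 were at least 2-fold higher and none lower, with a list median of 0.80 on the log2 scale. *Fads2*, a fatty acid desaturase, was at 72.6 against 11.9 CPM (log2 ratio 2.60, 95% interval 2.09 to 3.14). *Scd1* was at 452 against 151 CPM (1.59, interval 1.42 to 1.75), and *Olah*, a thioesterase that releases medium-chain fatty acids, at 92.99 against 22.1 CPM (2.08, interval 1.67 to 2.48). *Fasn*, the fatty acid synthase, was at 93.7 against 41.4 CPM. Of 8 acyl-CoA synthetase and acyltransferase genes counted, 4 were higher (*Slc27a4*, *Agpat3*, *Acsl1* and *Acsl5*), with log2 ratios from 1.29 to 1.57. Of 9 lipid droplet genes 4 were higher, among them *Cidea*, which fuses droplets (120 against 24.1 CPM, log2 ratio 2.31, interval 1.94 to 2.69), and *Mgll*, the monoglyceride lipase (222 against 71.8 CPM, 1.63, interval 1.39 to 1.86). Of 17 peroxisome genes 5 were higher, including *Cat*, the catalase (139 against 65.7 CPM), and *Pecr*, a peroxisomal reductase (113 against 45.4 CPM). Of 11 mevalonate and sterol genes 3 were higher, and all 11 had ratios above 0. *Idi1* was at 548 against 259 CPM, below its 934 CPM in fibroblast-marker cells, and whether it is expressed in the members was not tested.

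Other groups differed less. None of 16 genes of mitochondrial fatty acid oxidation reached 2-fold, yet all 16 had ratios above 0 with a median of 0.48, whereas 59.6% of all genes counted lay above 0. None of 15 regulators reached 2-fold, with *Cebpa*, encoding a C/EBP factor of lipid cells, at 149 against 89.3 CPM and *Srebf1*, encoding the sterol-regulated factor of fatty acid synthesis, at 242 against 156 CPM. None of 7 steroid genes reached 2-fold, yet all 7 had ratios above 0 with a median of 0.63. With cells of at least 3 duct markers left out of both groups, 5 of the 7 lay above 0. Of 7 ether lipid genes 1 was higher, *Agps*, the alkylglycerone phosphate synthase (199 against 97.4 CPM). Its partner *Far1*, which makes the fatty alcohol, was at 43.0 against 47.2 CPM. Of 9 sphingolipid genes 1 was higher, the sphingosine kinase gene *Sphk1* (97.9 against 48.7 CPM). Of 25 detoxification and redox genes 1 was higher, *Mgst1*, a microsomal glutathione transferase (1883 against 859 CPM, log2 ratio 1.13, interval 1.06 to 1.21). *Psph* was at 985 against 413 CPM.

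Of 16 basal and hemidesmosome genes counted, 3 were at least 2-fold lower (*Lamb3*, *Lama3* and *Bcam*) and none higher, with a median of -0.48. Below 2-fold, *Krt15*, a keratin of basal progenitors, was at 689 against 1284 CPM (log2 ratio -0.90, interval -0.9987 to -0.80), and *Col17a1*, a hemidesmosome collagen, at 100 against 197 CPM (-0.98, interval -1.25 to -0.72). Of 17 progenitor and signalling genes 3 were lower (*Cd34*, *Id3* and *Jag1*). None of 13 cell cycle genes outside the rule reached 2-fold, with the cyclin gene *Ccnd2* at 443 against 494.5 CPM. Of 16 immediate early and heat shock genes 1 was lower, *Dusp1* (31.7 against 96.4 CPM). Among the 10 genes with the lowest ratios were *Tagln* (19.0 against 275 CPM) and *Acta2* (22.5 against 88.3 CPM), which encode contractile proteins. *Tagln* had UMIs in 20.5% of Dbi-low cells and 4.49% of members, and the contractile markers together summed to 387 CPM in Dbi-low cells. With cells of at least 3 fibroblast, immune or contractile markers left out, the log2 ratio of *Tagln* was -3.69, against -3.85 with them. The calcium-binding *S100a6* (789 against 2117 CPM), the mitochondrial *Ndufa4l2* (265 against 744 CPM), *Ndrg1* and the lactate transporter gene *Slc16a3* were in the same 10. Of 14 suprabasal genes 1 was higher and 2 lower, and of 10 secreted and antimicrobial genes 2 were higher and 2 lower.

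The genes with the highest ratios were of 2 kinds. *Cidea*, *Olah*, *Mgll*, *Pdss1* (prenyl chains of ubiquinone, 199 against 57.6 CPM), *Scgb1c1* (a secretoglobin, 121 against 29.7 CPM) and *Secisbp2l* (221 against 72.1 CPM) had their higher level in the 289 members with fewer than 3 duct markers. The difference was small for *Cidea*, at 130.3 CPM there against 100.2 CPM in the 90 other members, and larger for *Scgb1c1*, at 171 against 28.1 CPM. *Krt79*, a keratin of the sebaceous duct, had the highest ratio (998 against 134 CPM, log2 ratio 2.90, interval 2.76 to 3.05). As one of the 7 duct markers it was at 2407 CPM in the 90 and at 234 CPM in the 289. *Defb6*, *Ly6g6c* and *Psapl1* were of this second kind, with 5695, 1379 and 581 CPM in the 90 cells. When cells with at least 3 duct markers were left out of both groups, 104 of 5364 genes (1.94%) were at least 2-fold higher and 147 (2.74%) at least 2-fold lower. The ratio of *Krt79* was then 1.71, that of *Krt14* 0.18, that of *Scd1* 1.75 and that of *Cidea* 2.25, all on the log2 scale. Of 10 mevalonate and sterol genes 5 were then higher, and of 8 acyl transfer genes 5. Of 12 progenitor and signalling genes 1 was then lower, with a median of -0.08, and of 13 cell cycle genes 2 were lower.

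**Figure D3:**
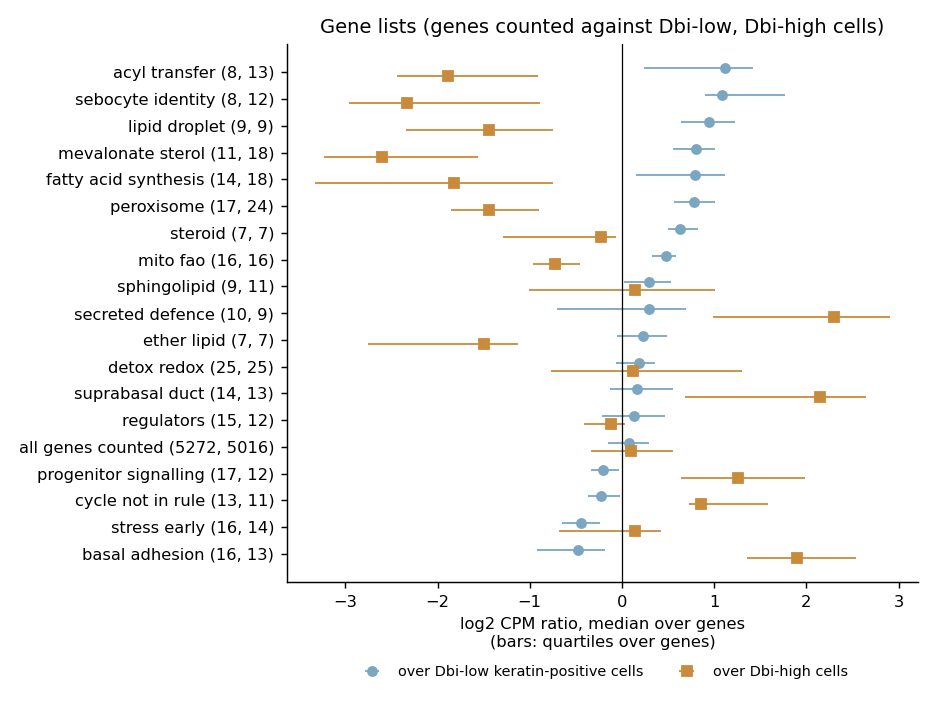
Median log2 CPM ratio over the counted genes of each list (x axis; bars, quartiles over genes), members over Dbi-low keratin-positive cells (circles) and members over Dbi-high cells (squares); numbers give the genes counted in each comparison. Lists of lipid synthesis and storage lie right of 0 against Dbi-low cells and left of 0 against Dbi-high cells, except the sphingolipid genes, right of 0 in both. Basal adhesion genes lie the other way, while the regulators stay close to all genes in both.

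Compared with Dbi-high cells, the members had higher levels of basal genes and lower levels of lipid genes. Of 5016 genes counted, 536 (10.7%) were at least 2-fold higher and 367 (7.32%) at least 2-fold lower. Of 13 basal genes 12 were higher, which the choice partly builds in, since 318 of the 367 Dbi-high cells were below the keratin limit that the members had to reach. *Krt15* was at 689 against 30 CPM (log2 ratio 4.52, interval 4.16 to 4.90), *Col17a1* at 100 against 5.82 CPM (4.10, interval 3.28 to 5.05), and *Trp63*, encoding the p63 factor of stratified epithelia, at 245 against 65.8 CPM. In the 49 Dbi-high cells that reached the limit, *Krt15* was at 108 CPM, *Col17a1* at 12.5 CPM and *Trp63* at 58.3 CPM. Of 12 progenitor and signalling genes 6 were higher, among them *Notch1* (121 against 26.0 CPM) and the Notch ligand gene *Jag2* (134 against 35.8 CPM), and *Ccnd2* was at 443 against 64.9 CPM. Of 9 secreted and antimicrobial genes 6 were higher, and this moved with the duct-marker cells, which were 23.7% of the members and 7.63% of the Dbi-high cells. The list summed to 68413 CPM in the 90 members with at least 3 duct markers and to 12467 CPM in the other 289, against 13672 CPM in Dbi-high cells. *Lcn2*, encoding a lipocalin of the innate defence, was at 3186 against 2346 CPM, and *Apoe* at 8583 against 6794 CPM. The chemokine gene *Cxcl14* was at 670 against 46.1 CPM and the aldehyde dehydrogenase gene *Aldh3a1* at 325.5 against 27.3 CPM.

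On the other side, 16 of 18 mevalonate and sterol genes were at least 2-fold lower in the members, and none was higher. *Idi1* was at 548 against 11970 CPM (log2 ratio -4.45, interval -4.55 to -4.35), *Hmgcs1*, the first committed enzyme of the pathway, at 216 against 2218 CPM, and *Mvd* at 12.0 against 181 CPM. Of 18 fatty acid synthesis genes 13 were lower, with *Scd1* at 452 against 4730 CPM, *Fads2* at 72.6 against 948 CPM and *Olah* at 92.99 against 976 CPM. Of 13 acyl transfer genes 9 were lower. *Awat2* was at 13.4 against 1261 CPM (-6.56, interval -7.29 to -5.91), and *Soat1*, encoding a sterol acyltransferase, at 9.86 against 425 CPM (-5.43, interval -6.31 to -4.68). These were the lowest ratios among genes with at least 50 CPM. Few cells carried the *Awat2* sum of the Dbi-high cells. Of the 367, 91 (24.8%) had a UMI, and the 90th percentile was 8.37 per 10000 UMIs, the 95th 53.8 and the highest cell 406. Of 24 peroxisome genes 16 were lower, of 7 ether lipid genes 5 and of 9 lipid droplet genes 6, with *Mgll* at 222 against 3087 CPM and *Agps* at 199 against 1405 CPM. *Crat*, the carnitine acetyltransferase, was at 28.9 against 390 CPM, *Fa2h*, the fatty acid hydroxylase, at 12.7 against 196 CPM, and *Hsd11b1*, which activates glucocorticoids, at 12.0 against 169 CPM. Of 12 regulators counted, 1 was lower and none higher, with *Srebf1* at 242 against 300 CPM and *Cebpa* at 149 against 189 CPM. *Pparg*, which is in the rule for the members alone, was at 31.0 against 30 CPM. Of 16 genes of mitochondrial fatty acid oxidation 4 were lower and 1 higher, of 25 detoxification genes 5 and 8, of 11 sphingolipid genes 3 and 3, of 14 immediate early and heat shock genes 3 and 1, and of 7 steroid genes 3 and 0.

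**Figure D4:**
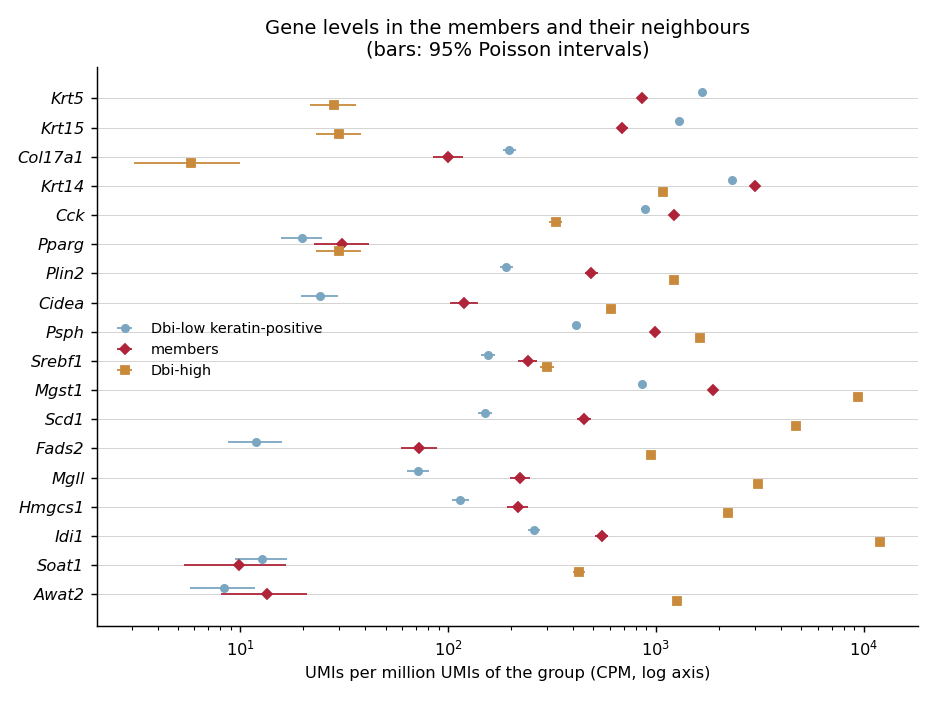
Level of 18 genes in Dbi-low keratin-positive cells (circles), members (diamonds) and Dbi-high cells (squares), in CPM on a log axis with 95% Poisson intervals. *Krt5*, *Krt15* and *Col17a1* in the members lie nearer the Dbi-low level, *Pparg* and *Srebf1* near the Dbi-high level, and *Soat1* and *Awat2* at the Dbi-low level. *Krt5*, *Krt14*, *Cck*, *Pparg* and *Plin2* are genes of the rule, so their places depend partly on the choice.

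The position of the members between both neighbours differed from gene to gene. It was expressed as the part of the CPM difference from Dbi-low to Dbi-high cells that the members had covered. For *Dbi*, which set the groups, it was 24.95%. Over 405 genes at least 2-fold higher in Dbi-high cells the median was 20.04% (quartiles 12.1% and 31.2%), and 254 of them had covered less than *Dbi*. Without cells of at least 3 duct markers the median was 21.3%, with *Dbi* at 23.05%, and 216 of the 405 had covered less than *Dbi*, while those past 50% were 46 in place of 20. *Cyp2f2*, a cytochrome P450 gene, stood at 80.2%, *Scgb1c1* at 67.6%, *Cebpa* at 60.3%, *Srebf1* at 59.5% and *Psph* at 47.0%. *Plin2*, a gene of the rule, stood at 29.1%, *Cidea* at 16.4%, *Fasn* at 12.5% and *Mgst1* at 12.0%. *Agps* at 7.74%, *Scd1* at 6.59%, *Mgll* at 4.98%, *Hmgcs1* at 4.83% and *Idi1* at 2.47% had covered little of the difference, and the levels of *Scd1*, *Mgll*, *Hmgcs1* and *Idi1* in the members were no higher than in fibroblast-marker cells. Further, *Awat2* at 0.400%, *Soat1* at -0.684% and *Far1* at -0.883% had covered almost none. Without cells of at least 3 duct markers the order within both ends changed. *Cyp2f2* was then at 130.7%, *Srebf1* at 107.5%, *Scgb1c1* at 101.2%, *Cebpa* at 93.4% and *Psph* at 66.9%. At the other end *Idi1* was at 1.81%, *Far1* at -0.151%, *Awat2* at -0.166% and *Soat1* at -1.07%. Genes at both ends were named after their values had been seen. Genes lower in Dbi-high cells (279) had covered a median of 24.1%, or 39.3% without the duct-marker cells.

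Levels of some genes were also followed along *Dbi* itself. Keratin-positive, non-proliferating cells with fewer than 3 duct markers, with no limit on *Cck*, *Pparg* and *Plin2*, were grouped by *Dbi*. *Krt5* was at 2017 CPM in the 389 cells below 10 per 10000 and at 1168, 787, 631 and 546 CPM in the bins from 50, 75, 100 and 150 per 10000. *Krt14* was at 2052 CPM in the lowest bin and at 2714 CPM in the highest. The limit on the sum of both keratins applies in every bin, and its part in the *Krt14* level was not tested. *Cck* was at 786 CPM in the lowest bin, at 1537, 1501 and 1637 CPM from 50 to 150 per 10000, at 743 CPM in the 21 cells from 150 to 200 per 10000, and at 592 CPM in the 31 cells from 200 per 10000 upward. *Psph* was at 275 CPM in the lowest bin and at 1032 CPM from 50 to 75 per 10000, and stayed between 1404 and 1473 CPM above. *Scd1* was at 140 CPM in the lowest bin, at 229, 613, 778 and 1911 CPM in the bins of the members' window and at 5282 CPM above it. *Mgll* ran from 60.8 to 940 CPM at 150 to 200 per 10000 and to 4378 CPM above. *Awat2* was at 16.0 CPM or lower in every bin of the window and at 6354 CPM from 200 per 10000 upward, a sum over 31 cells, while the median of *Awat2* over all Dbi-high cells was 0. The bin from 150 to 200 per 10000 held 21 cells and gives the least precise values. These bins are cut by *Dbi*, so values of other genes describe the cells and do not date them.

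Before the duct-marker cells were left out, the bins had another trend. Their share was 16.3% below 10 per 10000, 34.7% from 50 to 75, 55.9% from 100 to 150 and 60.4% from 150 to 200 per 10000, and 36.7% above 200. *Cst6* ran from 902 to 57233 CPM over the same range. *Krt14* then reached 4317 CPM from 100 to 150 per 10000, and *Cck* was at 637 CPM there. Keratin-positive PG cells with an intermediate *Dbi* level were thus a mixture, and the requirement for *Cck*, *Pparg* and *Plin2* kept the larger share of duct-marker cells out of the members.

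**Figure D5:**
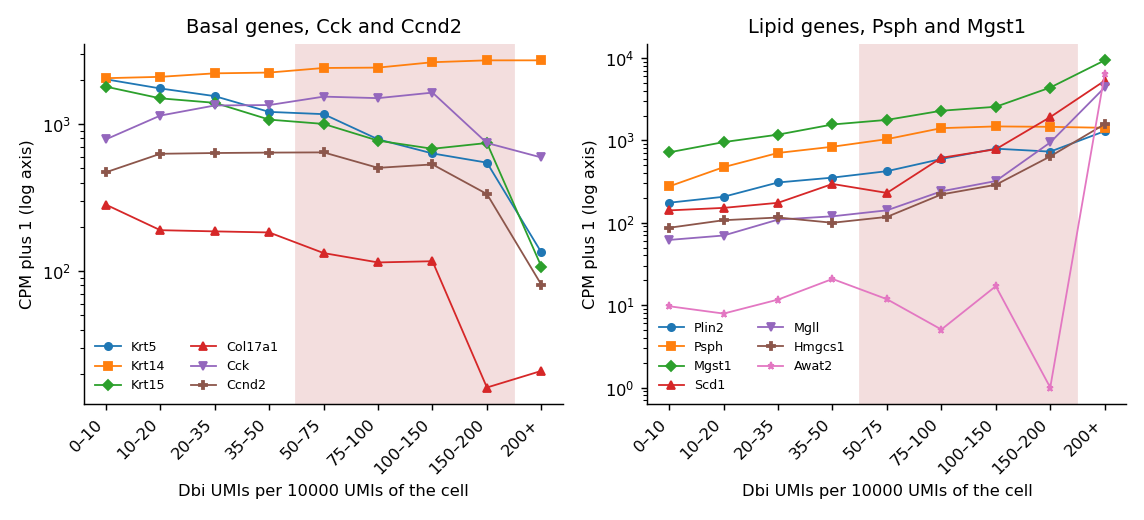
Levels of named genes (y axis, CPM plus 1, log axis) in keratin-positive, non-proliferating PG cells with fewer than 3 duct markers, grouped by *Dbi* per 10000 UMIs (x axis); the shaded bins are the members' window. *Krt5*, *Krt15* and *Col17a1* are lower in the last bin than in the first, and *Krt14*, which like *Krt5* is in the keratin limit, is nearly level. *Psph* levels off at 75 per 10000. The summed *Awat2* level stays at the bottom until the last bin, although 24.8% of all Dbi-high cells had a UMI of it.

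The members varied among themselves. Over 613 genes with at least 200 CPM in the members, the variance over cells was a median of 1.29 times the Poisson expectation. It was 358 times for *Cst6*, 36.2 times for *Krt17*, 35.3 times for *Krtdap*, 30.1 times for *Fabp5*, 26.9 times for *Defb6*, 18.3 times for *Cstb* (cystatin B) and 17.5 times for *Sprr1a* (a cornified envelope precursor). *Krt17* and *Krtdap* are among the 7 duct markers. The other 5 were at higher levels in the members with at least 3 duct markers, with *Fabp5* at 5524 against 402 CPM. *Cst6* had 91.1% of its UMIs in the 10% of cells with most of it. Of the other 3 among the 10 most variable, *Idi1* had 66.8% of its UMIs in such cells, *Igkv4-55*, an immunoglobulin gene, came from 2 cells, and *Gm42418*, which overlaps ribosomal RNA and dominates free RNA (230202 CPM), was at 14592 CPM. Across the 289 members with fewer than 3 duct markers, Spearman's rho of *Dbi* was 0.43 with *Scd1*, 0.31 with *Mgst1*, 0.22 with *Psph*, -0.20 with *Krt15* and -0.36 with *Krt5*. These are descriptions over cells of 1 library that share the total UMI count as denominator, and *Dbi* was bounded by the rule.

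The nearest cells outside the rule were compared for the genes it did not use. Proliferating counterparts, 55 cells that met all limits but had at least 3 of the 8 proliferation genes, had more *Hmgb2* (1513 against 174 CPM) and *Stmn1* (681 against 97.2 CPM), as their choice implies. Lipid genes differed from one to the next. *Mgst1* was at 1660 CPM against 1883 CPM (log2 ratio of members over these cells 0.18, interval 0.04 to 0.33) and *Scd1* at 371 against 452 CPM (0.29, interval -0.02 to 0.61), while *Idi1* was at 204 against 548 CPM (1.42, interval 1.02 to 1.85), both below its level in fibroblast-marker cells. Cells with keratin below the limit that met the rest (493 cells, median 4111 UMIs) had higher levels of the 4 lipid genes that follow. *Scd1* was at 1491 CPM there, *Mgst1* at 4252 CPM, *Idi1* at 1701 CPM and *Mgll* at 711 CPM, with *Krt15* at 217 CPM. *Awat2* was at 27.0 CPM and *Far1* at 31.2 CPM, still near the members' 13.4 and 43.0 CPM. The Dbi-high cells that met the keratin limit (49 cells) had *Awat2* at 5935 CPM and *Far1* at 2231 CPM.

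In back skin the rule found 3 of 8899 cells (0.0337%), with *Cck* at 60.3 CPM. Without the *Dbi* limits 46 skin cells and 1215 PG cells met the rule, and *Dbi* was at 1245 CPM over all kept skin cells and at 9238 CPM in PG. Keratin-positive SEB of skin were therefore taken by markers, as cells at the keratin limit with at least 3 of *Scd1*, *Mgst1*, *Cidea*, *Awat2*, *Soat1*, *Pparg*, *Plin2*, *Elovl3* and *Far2*. This gave 42 skin cells (median 5178 UMIs) and 625 PG cells, of which 201 were members. In the skin cells *Dbi* was at 1103 CPM, *Cck* at 4.06 CPM from 1 UMI, and *Lcn2* at 52.7 CPM, against 9373, 1224 and 3186 CPM in the members. *Cyp2f2*, *Fads2*, *Olah* and *Scgb1c1* had no UMI among 246563 in the skin cells, which by 3 counts allows up to 12.2 CPM each, and were at 755, 72.6, 92.99 and 121 CPM in the members. *Agps* was at 24.3 against 199 CPM. Higher in the skin cells were *Fabp4* (1849 against 59.9 CPM), *Apoe* (25239 against 8583 CPM) and *Krt15* (2620 against 689 CPM), none of which chose them. The genes that chose the skin cells are set only beside the 625 PG cells taken by the same markers, and their values describe that choice. *Soat1* was at 406 CPM in the skin cells and 90.8 CPM in those PG cells, *Cidea* at 771 and 179 CPM, and *Scd1* at 1736 and 911 CPM. The same PG cells had *Dbi* at 8887 CPM, *Cck* at 1080 CPM, *Fabp4* at 37.95 CPM and *Krt15* at 747 CPM. Tissue and library cannot be told apart here.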

How the data were processed

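Cells of back skin and PG were dissociated and sequenced with a droplet-based 3′ kit. The labels name the same kit version for both libraries, but their barcode lists differed in length. What this means for values set side by side between the tissues was not tested. The authors deposited, for each library, whole-number UMI counts per gene and barcode, written by Cell Ranger on the mm10 build. They cover 32285 genes and all barcodes, without a filter on cells. The annotation release is not given in the sources used here, and gene positions were taken from GENCODE M21. PG held 26288071 UMIs, of which 15270076 lay in 4699 kept cells, and skin held 37675226, of which 27407186 lay in 8899. No barcode of a kept cell was shared by the libraries.

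From the deposited counts, UMIs were summed per group and scaled to CPM, with exact Poisson 95% intervals, and log2 ratios carried the exact binomial interval of the UMI split. A group at 0 was set to 3 UMIs in ratios. Genes with a mean of at least 20 CPM over both groups were counted past 2-fold, leaving out the genes of the rule. With 1 library per tissue no p-value was computed. Doublets were scored by the share of simulated doublets among 30 neighbours and were kept.

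The members and the 23 gene lists were chosen with earlier results of these data known. Named genes are those of the rule, 2 to 5 per list with the highest CPM or the largest ratio, the 10 highest and 10 lowest ratios in each comparison (mean of 50 CPM or more, detected in 10% or more of the cells of either group) and the 10 most variable genes. Some genes that the rule would name are not reported here. Genes outside that rule were named after their values were seen. Scripts were tested on simulated data. Python 3.11.15, numpy 2.4.6, scipy 1.17.1, scikit-learn 1.9.0 and matplotlib 3.10.9 were used.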

Additional observations from a re-analysis of the deposited data

Results flagged for a closer look

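Barcodes above the mitochondrial limit, which no comparison used, included 16 that met the rest of the rule, of 662 such PG barcodes (2.42%). Their median mitochondrial share was 15.3%, and they had *Krt14* at 2702 CPM, *Cck* at 1313 CPM, *Scd1* at 483 CPM and at least 3 duct markers in 4 cells. In back skin 3 barcodes met the rule of the members, with *Krt14* at 6275 CPM, *Cck* at 60.3 CPM and *Scd1* at 60.3 CPM.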

How the results depend on the processing

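No paired analysis was possible because each tissue is 1 library. Over 17 alternatives, 339 of 340 ratios of the 20 genes named by ratio kept their direction against Dbi-low cells, and over 18 alternatives all 360 did against Dbi-high cells. These genes were named for extreme ratios, which favours a kept direction. Under 2-fold were 8 of the 340 ratios and 3 of the 360. The exception in direction was *Secisbp2l*, whose log2 ratio against Dbi-low cells was -0.13 with *Krt5* plus *Krt14* of at least 40 per 10000. That limit left 116 members, and a *Dbi* limit of 75 per 10000 left 216. With the keratin limit of 40, 160 genes were 2-fold higher and 180 lower than in Dbi-low cells, of which 31 of the 79 and 57 of the 90 were shared with the values reported, and 575 were lower than in Dbi-high cells. With the *Dbi* limit of 75, 135 were higher than in Dbi-low cells. Against Dbi-low cells without a UMI of *Cck*, *Pparg* or *Plin2*, 397 were higher and 257 lower. Thinned to 1000 UMIs per cell, 210 were higher and 175 lower than in Dbi-low cells. Leaving out cells with at least 3 duct markers, chosen as an alternative after the data were seen, 149 were lower, when the 7 markers are counted too. Leaving out cells with at least 3 fibroblast, immune or contractile markers, also added later, gave 76 higher and 82 lower, and leaving out the barcodes with the highest doublet scores 66 and 77. Without a floor on CPM, 358 were higher and 894 lower than in Dbi-low cells and 1875 and 747 than in Dbi-high cells, and with a floor of 50 CPM 43 and 33, and 198 and 229, where fewer genes are counted. The cause of the other changes was not tested. Leaving out mitochondrial, ribosomal protein and *Dbi* UMIs shifted the ratios by 0.08 against Dbi-low cells. Depth limits genes of few UMIs, such as *Awat2* and *Soat1* in the members, and no value has a replicate.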
